A study of Microtus ochrogaster with 6 samples.

Results

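The transcripts of the 7 subunits of respiratory complex I that vertebrate mitochondria encode themselves, ND1, ND2, ND3, ND4L, ND4, ND5 and ND6, were followed in the nucleus accumbens of prairie voles (Microtus ochrogaster). They were taken as 7 listed gene identifiers out of 19648 in the deposited gene table, named by their place in the mitochondrial gene order: ENSMOCG00000000006 for ND1, ENSMOCG00000000010 for ND2, ENSMOCG00000000025 for ND3, ENSMOCG00000000027 for ND4L, ENSMOCG00000000028 for ND4, ENSMOCG00000000032 for ND5 and ENSMOCG00000000033 for ND6. The nucleus accumbens is a ventral striatal region with roles in reward and social attachment. Poly(A) RNA was sequenced in 6 libraries. In 3 of them the offspring's mother had received oxytocin before giving birth, and in the other 3 she had received saline. No genetic alteration is named for either group. The series title speaks of male offspring and its design text of a juvenile brain, while the labels of the libraries give no sex, age, dose or hour of injection. Treatment was given to the mother. The sources used here do not say if the libraries are from different animals or litters, so the spread between them may in part be technical.

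Complex I (NADH:ubiquinone oxidoreductase) is the entry point for electrons from NADH into the respiratory chain, and it pumps protons across the inner mitochondrial membrane. Its core membrane subunits are made from mitochondrial DNA, and the remaining subunits are nuclear. Both strands of the mitochondrial genome are transcribed into long precursors. All of the complex I messengers are cut out of the heavy-strand type of precursor except ND6, whose sense RNA comes from the other strand. ND4L and ND4 have overlapping reading frames and stay together on a bicistronic messenger. Neurons of the striatum, like other neurons, rely heavily on oxidative phosphorylation.

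The gene table pairs no identifier with a symbol, so the names were checked against the order itself. The first 37 identifier numbers were read as the 37 genes of a vertebrate mitochondrial genome, and 13 of these numbers are in the gene table. They fall on the positions of protein-coding genes in that order, and the 24 numbers that are not in it fall on those of ribosomal and transfer RNAs. The 6 heavy-strand members ranked between 3 and 46 by mean count among all genes, and ND6 ranked 2515. Library totals ran from 17652854 to 27786606 counts. The smallest member count was 1237, for ND6 in saline replicate 2, where counting error alone is 2.84%. For the 6 heavy-strand members it is at most 0.809%, far below the spread between libraries. None of the libraries was left out. Nuclear-encoded complex I genes and cell type markers of the nucleus accumbens were not analysed here, because 0 of the 19648 identifiers matched the reference table used.

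The 7 subunits together took 3.67% of all counts on average, from 2.55% in saline replicate 2 to 4.51% in oxytocin replicate 1. Values of single subunits are given in counts per 1000000 after TMM scaling (CPM), which compare libraries for one subunit and do not compare subunits with each other, since they are not divided by length. ND1, which lines the ubiquinone channel, stood at 12849, 8009 and 8385 CPM in oxytocin replicates 1, 2 and 3, and at 11082, 6738 and 10914 CPM in saline replicates 1, 2 and 3. The highest library was treated with oxytocin and the lowest with saline, and the groups overlapped.

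ND2, ND4 and ND5 are the antiporter-like subunits, thought to carry proton translocation along the membrane arm. ND2 stood at 11555, 8251 and 9108 CPM in the oxytocin libraries and at 11165, 6336 and 11931 CPM in the saline libraries, in replicate order. ND4 stood at 13078, 10088 and 10112 CPM in the oxytocin libraries and at 11864, 7194 and 13339 CPM in the saline libraries. ND5, the outermost of these subunits, stood at 5073, 2943 and 3265 CPM in the oxytocin libraries and at 4129, 2586 and 4161 CPM in the saline libraries. In each of ND2, ND4 and ND5 saline replicate 2 was the lowest library, and oxytocin replicate 1 was the highest of its group. The groups overlapped in all of them.

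ND3, ND4L and ND6 are small subunits that lie in the part of the membrane arm joining the quinone site to the proton channels. ND3 stood at 1478, 1230 and 1253 CPM in the oxytocin libraries and at 1718, 941.3 and 1806 CPM in the saline libraries. ND4L stood at 1572, 1274 and 1356 CPM in the oxytocin libraries and at 1369, 838.4 and 1686 CPM in the saline libraries. For both, the 3 oxytocin libraries lay inside the range of the saline libraries. ND6, the light-strand member, stood at 118.3, 72.7 and 103.3 CPM in the oxytocin libraries and at 91.7, 67.9 and 98.4 CPM in the saline libraries. It again overlapped between groups.

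**Figure D1:**
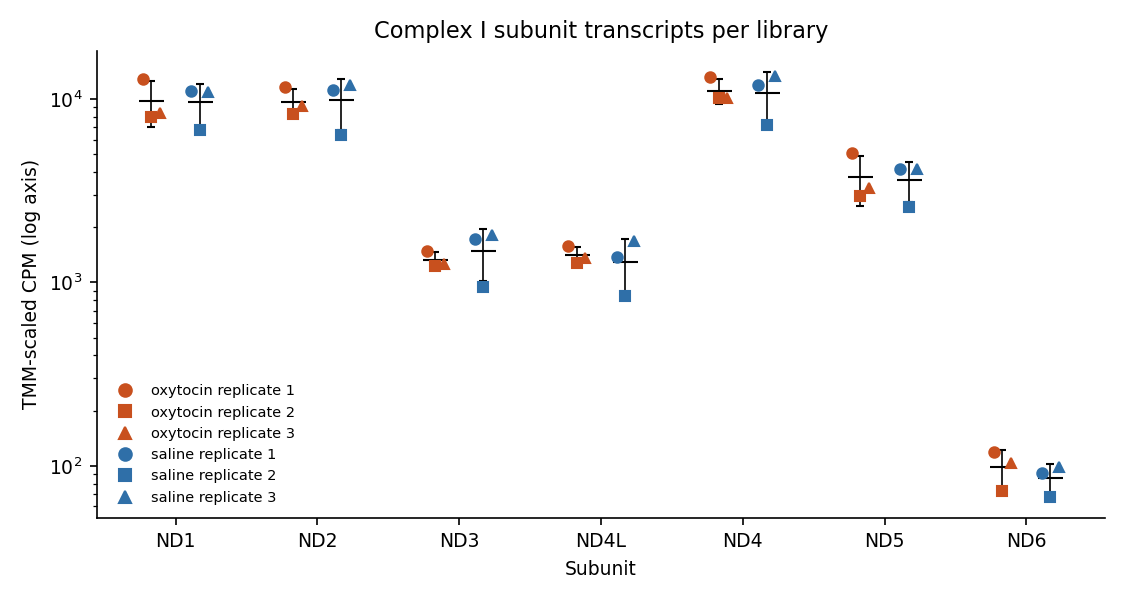
TMM-scaled counts per 1000000 (log axis) of the 7 subunit transcripts, with 1 point per library, oxytocin in orange and saline in blue; black bars are the group mean and SD (n = 3 each). For every subunit the groups overlap and saline replicate 2 is the lowest library. ND6 has the fewest counts (67.9 to 118.3 CPM), but CPM are not divided by length and do not compare levels between subunits.

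No subunit transcript differed between the 2 maternal treatments beyond the spread between libraries. ND4L averaged 1401 ± 154 CPM with oxytocin and 1298 ± 428 CPM with saline (SD, n = 3 each), a log2 difference of 0.11 with an SE of 0.24. ND3 was 1320 ± 137 and 1488 ± 476 CPM (SD, n = 3 each), a log2 difference of -0.17 with an SE of 0.24. ND6 was 98.1 ± 23.3 and 86.0 ± 16.03 CPM (SD, n = 3 each), a log2 difference of 0.19 with an SE of 0.21. In ND1, ND2, ND4 and ND5 the log2 difference lay between -0.03 (ND2) and 0.05 (ND5), with SEs of 0.24 to 0.26. Means were higher in the oxytocin libraries for 5 of the 7 and lower for ND2 and ND3.

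By edgeR's quasi-likelihood test with Benjamini-Hochberg adjustment over all 14500 genes tested, 0 of the 7 members passed, each with an adjusted p of 1, against 0% of all genes. The smallest unadjusted p among the members was 0.388 by edgeR's quasi-likelihood test, for ND6. Thus 0 of the 7 members were under 0.05, against 235 of the 14500 genes tested. At that share, 0 of 7 does not set the members apart from other genes. DESeq2 called 5 of the 17720 genes to which it gave an adjusted p. None of the members was among them, which at that share does not set the members apart. The adjusted p-values of the members by limma voom were 0.998. The groups did not overlap in 0 of the 7 members, against 5.75% of all tested genes. The median log2 difference of the members was 0.04, against -0.00064 over all tested genes. The pointwise 95% intervals reached from -0.73 (ND3) to 0.67 (ND4L) on the log2 scale, so for single subunits a difference of 1.5-fold in at least 1 direction was not excluded. The direction of most members rested on single libraries: 5 of 7 were higher with all libraries and under each other scaling, 2 of 7 without oxytocin replicate 1 and 1 of 7 without saline replicate 2.

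**Figure D2:**
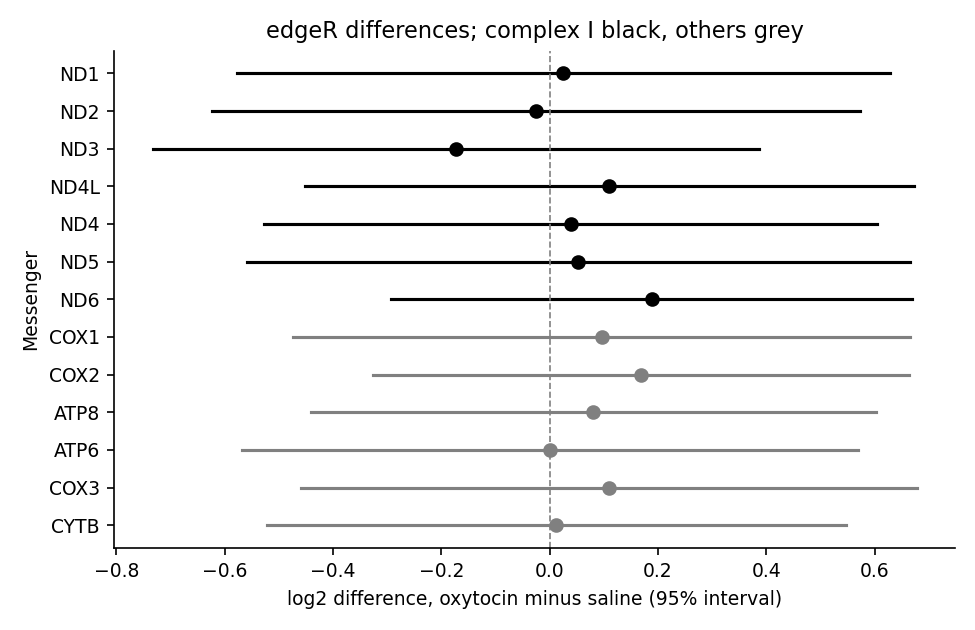
Fitted log2 differences, oxytocin minus saline, with pointwise 95% intervals from edgeR for the 7 complex I messengers (black) and the other 6 mitochondrially encoded messengers (grey). All 13 intervals include 0, and those of the complex I messengers run from -0.73 to 0.67.

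Differences between single libraries were shared by the subunits. Each member's highest library was between 1.74-fold (ND6) and 2.01-fold (ND4L) above its lowest. In saline replicate 2 all 7 subunits were below their own 6-library mean, by a median log2 of -0.54, with values from -0.65 (ND4L) to -0.41 (ND6). In oxytocin replicate 1 all 7 were above it, by a median of 0.29, and in saline replicates 3 and 1 by medians of 0.32 and 0.20. Oxytocin replicate 2 had all 7 below, with a median of -0.20. Oxytocin replicate 3 was the single library with mixed signs, where ND6 stood at 0.19, ND4L at 0.04 and the other 5 between -0.17 and -0.06. Both groups thus held libraries above and libraries below the mean.

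Within a group, the SD of log2 CPM was between 0.33 (ND6) and 0.41 (ND5), with a median over the members of 0.38. The median over the 5911 genes with a mean of at least 32 CPM was 0.14. Of those genes, between 92.6% (compared with ND6) and 96.7% (compared with ND5) had a smaller SD. The spread was not particular to complex I: the other 6 mitochondrially encoded messengers had SDs from 0.31 (COX2) to 0.37 (ATP6). In bulk tissue, fewer cells of a type and less RNA per cell cannot be told apart. The summed CPM of the members had no clear relation to library total over the 6 libraries (Pearson r = 0.341, exact permutation p = 0.464; Spearman rho = 0.143, exact permutation p = 0.803), and r was 0.459 without the 2 libraries farthest from the median total. The lowest library, saline replicate 2, was also the shallowest, while the highest, oxytocin replicate 1, was the next shallowest.

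**Figure D3:**
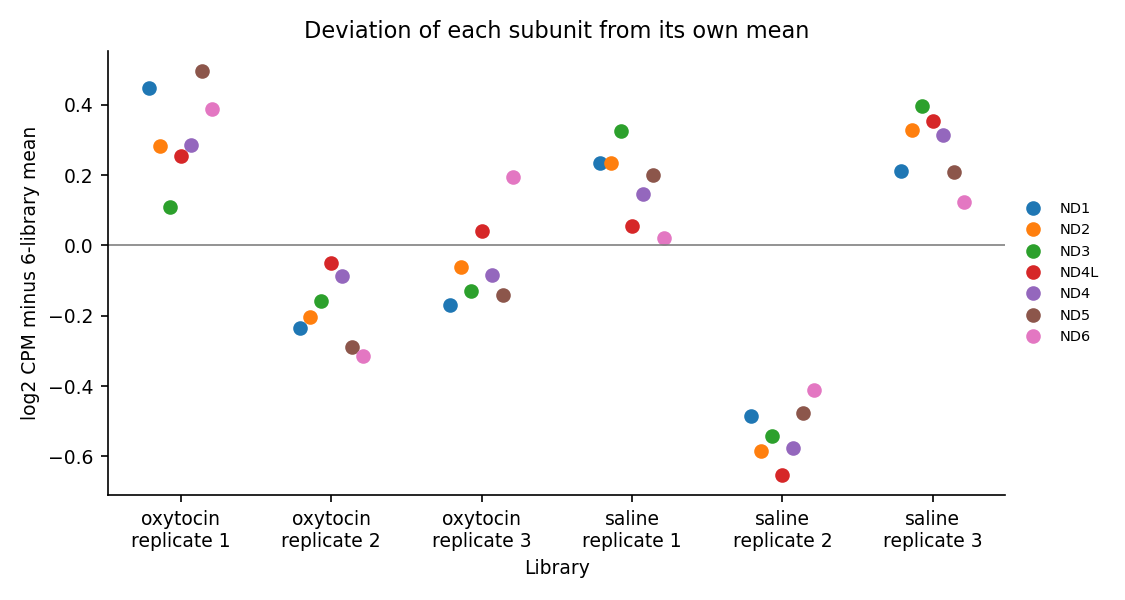
Log2 CPM of each subunit minus its own mean over the 6 libraries, by library, with 1 colour per subunit. The 7 points of a library lie together, from -0.65 to -0.41 in saline replicate 2 and from 0.11 to 0.50 in oxytocin replicate 1, and only oxytocin replicate 3 has points on both sides of 0.

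Each subunit was also compared with the summed CPM of the other 6 on the log2 scale, over the 6 libraries and both groups together. These values share the library total and the scaling. ND2 followed the sum most closely, with Pearson r = 0.985 (exact permutation p = 0.00417, adjusted over 7 subunits 0.00972) and Spearman rho = 0.943 (exact permutation p = 0.0167, adjusted 0.0292). For ND1, ND3, ND4L, ND4 and ND5, r lay between 0.924 and 0.972, with adjusted exact permutation p of at most 0.0146, and rho between 0.829 and 1, with adjusted exact permutation p of at most 0.0583. Without the 2 libraries farthest from the median sum, r was 0.796 for ND4L and between 0.948 and 0.997 for ND1, ND2, ND3, ND4 and ND5. The libraries left out were saline replicates 2 and 3 for ND1, and oxytocin replicate 1 and saline replicate 2 for the others. The r of 0.997 for ND1 thus still includes oxytocin replicate 1 and is not comparable with the others. ND6 followed the sum least, with r = 0.828 (exact permutation p = 0.0417, adjusted 0.0417) and rho = 0.829 (exact permutation p = 0.0583, adjusted 0.0583). Its r fell to 0.485 without oxytocin replicate 1 and saline replicate 2, so that relation rests on those libraries.

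The makeup of the 7 was steadier than their level. ND4 held 29.7% of the members' counts on average (28.6% to 31.7%), ND2 26.3% (25.3% to 27.2%), ND1 26.2% (24.8% to 28.1%) and ND5 9.99% (9.23% to 11.1%). ND3 held 3.82% (3.23% to 4.15%), ND4L 3.67% (3.30% to 4.04%) and ND6 0.252% (0.221% to 0.308%). These shares depend on transcript length and describe counts, not molecules. Oxytocin replicate 1, the library with the most complex I RNA, also had the lowest share of ND3 and the highest of ND1 and ND5.

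Ratios of counts between 2 subunits inside a library need no scaling, and 21 such pairs were compared. The steadiest was ND1 to ND5, which lie in distant parts of the mitochondrial genome. It was 2.53, 2.72 and 2.57 in the oxytocin libraries and 2.68, 2.61 and 2.62 in the saline libraries, a range of 1.07-fold while each of the messengers varied 1.91-fold and 1.96-fold in CPM. The least steady was ND3 to ND6, with a range of 1.55-fold. Without ND6, the widest range was 1.49-fold, for ND3 to ND5, which was 0.291 in oxytocin replicate 1 and 0.364 to 0.434 in the other libraries. These rankings are from counts only. The isoform abundances described below were not ranked in this way.

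The groups did not overlap in 2 of the 21 pairs (9.52%), both with ND3. Over all pairs of the 5911 genes with at least 32 CPM this share was 4.1%. Among all 13 mitochondrially encoded messengers, the 7 members included, the groups did not overlap in 7 of 78 pairs. Pairs that share a messenger are not independent. ND3 counts were 94.0%, 96.5% and 92.4% of ND4L counts in oxytocin replicates 1, 2 and 3, and 125.5%, 112.3% and 107.1% in saline replicates 1, 2 and 3. All 3 oxytocin libraries were below all 3 saline libraries, with means of 94.3% ± 2.09 and 115.0% ± 9.48 (SD, n = 3 each) and a ratio of 0.822-fold. The two-sided exact permutation p was 0.1, the smallest that 3 libraries against 3 can give, and 0.84 after adjustment over the 21 pairs. ND3 to ND4 was the other such pair, at 0.113, 0.122 and 0.124 in the oxytocin and 0.145, 0.131 and 0.135 in the saline libraries, with the same exact permutation p of 0.1 and adjusted value of 0.84. Neither pair passed the test.

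ND4L was compared with ND4 because they share a messenger. ND4L counts were 12.02%, 12.6% and 13.4% of ND4 counts in the oxytocin libraries and 11.5%, 11.7% and 12.6% in the saline libraries. The means were 12.7% ± 0.696 and 11.9% ± 0.605 (SD, n = 3 each), and the groups overlapped. The log2 difference was 0.09, with a two-sided exact permutation p of 0.3. Over all 6 libraries the ratio varied 1.16-fold, while ND4L and ND4 each varied 2.01-fold and 1.85-fold in CPM. Where reading frames overlap, the authors' counting can divide reads between them, so the level of this ratio is less certain than its spread.

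ND6 was set against the sum of the 6 heavy-strand subunits, the members from the other strand. The libraries were made from poly(A) RNA, and how fully that selection captures each messenger was not tested. The ratio therefore compares libraries and does not give the level of one strand against the other. ND6 counts were 0.259%, 0.229% and 0.309% of that sum in oxytocin replicates 1, 2 and 3, and 0.222%, 0.276% and 0.224% in saline replicates 1, 2 and 3. Oxytocin replicate 3 was highest and saline replicate 1 lowest, with overlapping groups. The means were 0.266% ± 0.0404 and 0.241% ± 0.0303 (SD, n = 3 each), a log2 difference of 0.14 with a two-sided exact permutation p of 0.5. This difference was 0.02 without oxytocin replicate 3 and 0.24 without oxytocin replicate 2. In these counts, all 6 pairs that include ND6 varied by 1.38-fold or more between libraries.

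**Figure D4:**
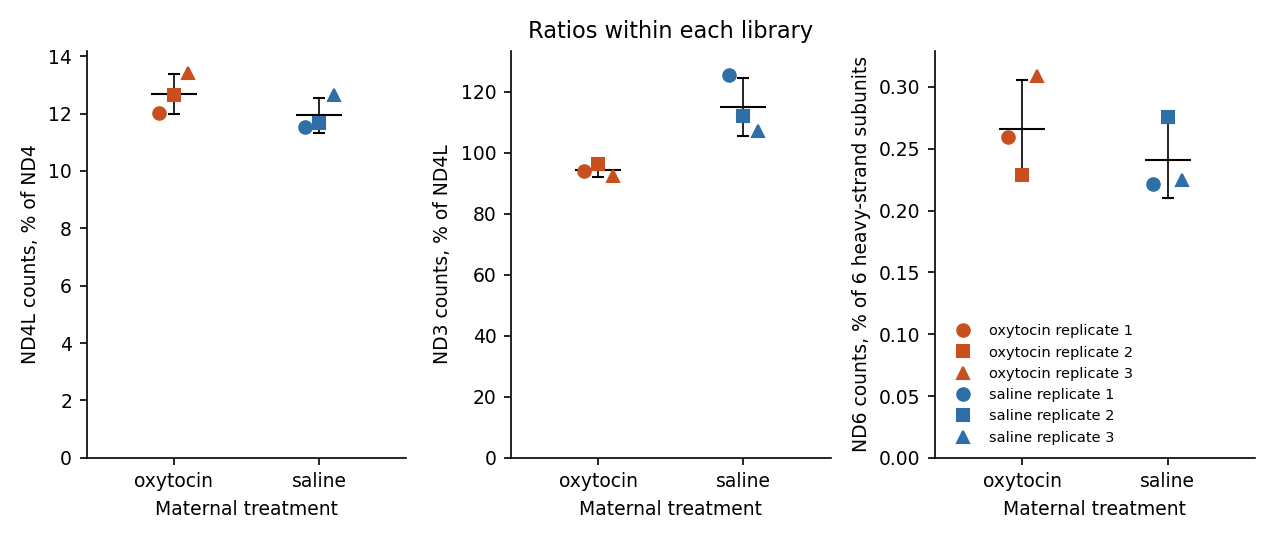
Count ratios within each library, in percent, for ND4L to ND4, ND3 to ND4L and ND6 to the sum of the 6 heavy-strand subunits, by maternal treatment; bars are the mean and SD (n = 3 each). Only in the middle panel do the groups not overlap, with oxytocin libraries at 92.4% to 96.5% and saline libraries at 107.1% to 125.5%.

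The isoform table gives a second reading of the same libraries. It holds abundances, not counts, and all of its values above 0 (100%, within 0.01 steps) are whole multiples of a constant per library, the form of an abundance per length that was rounded and then rescaled. That they are divided by length is not stated in the sources used here. Nor do the tables pair transcripts with genes. The transcripts with the same closing numbers as the 7 genes were used, so the names below rest on that match. Values are given per 1000000 of a library's isoform total (ppm). Gene counts divided by these abundances gave quotients that varied by at most 1.20-fold between libraries in the 6 heavy-strand members: 0.243 to 0.286 for ND1, 0.265 to 0.312 for ND2, 0.419 to 0.466 for ND4 and 0.361 to 0.434 for ND5. The quotient was lower for the short reading frames of ND3 (0.0773 to 0.0882) and ND4L (0.0849 to 0.0942). The match did not hold for all mitochondrial messengers. Among the other 6, COX1, COX2 and CYTB had quotients between 0.173 and 0.448. ATP8, ATP6 and COX3, which ranked 24, 4 and 2 by mean gene count, were nearly absent from the isoform table under their closing numbers, at 0.235 to 0.522 ppm. Their quotients ran from 978 to 21837 and varied 2.60-fold to 2.64-fold between libraries. The part of the match by number in this was not tested.

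On this scale, which did not hold for ATP8, ATP6 and COX3, the transcript matched to ND1 was the most abundant of the 7, at 16153 ppm on average, followed by ND2 at 15006 ppm, ND4 at 10553 ppm, ND3 at 7451 ppm, ND4L at 6454 ppm, ND5 at 3986 ppm and ND6 at 3636 ppm. Neighbours in this order were compared inside each library by exact sign-flip permutation over the 6 libraries, adjusted over 6 comparisons. The order was itself set from the means of these libraries. An offset fixed for a transcript would also recur in every library. The p-values below thus describe how steady the order was on this scale, and do not show differences in numbers of molecules. ND2 exceeded ND4 by 1.42-fold, ND4 exceeded ND3 by 1.42-fold, ND4L exceeded ND5 by 1.62-fold and ND5 exceeded ND6 by 1.10-fold, each in 6 of 6 libraries (exact permutation p = 0.0312, the smallest this design allows, adjusted 0.0469). ND1 over ND2 (1.08-fold) and ND3 over ND4L (1.15-fold) held in 5 of 6 libraries and did not pass (exact permutation p = 0.0625, adjusted 0.0625). The excess of ND3 over ND4L was reversed in oxytocin replicate 1, where the ratio was 0.951. ND3 to ND4L was 95.1%, 112.6% and 109.8% in the oxytocin and 135.8%, 120.0% and 122.6% in the saline libraries, again without overlap (two-sided exact permutation p = 0.1), from the same reads as the gene table. ND3 to ND4, the other such pair in the counts, overlapped between groups on this scale. Of the members' shares in their summed abundance, that of ND3 overlapped and only that of ND4L did not. The ND4L share was 10.52%, 10.70% and 10.61% in the oxytocin and 9.28%, 9.59% and 10.46% in the saline libraries. In the counts the ND4L share overlapped. ND4L was 63.1% ± 2.63 of ND4 with oxytocin and 59.1% ± 2.995 with saline (SD, n = 3 each), where the counts had given 12.7% and 11.9%.

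Among the 7 members, the tables differed most for ND6. In the gene table ND6 had 2.22% to 3.17% of the counts of ND5, the neighbouring gene on the opposite strand. In the isoform table it had 86.5% to 97.4% of the abundance of ND5. The spread of ND6 also differed between the tables. Its share in the summed 7 varied 1.39-fold between libraries in the counts and 1.12-fold in the isoform table. The quotient of count to abundance was 0.00990 to 0.0131 for ND6, below that of every other member, ND3 and ND4L included. Against the 6 heavy-strand subunits, ND6 was 6.14% ± 0.398 with oxytocin and 6.07% ± 0.275 with saline (SD, n = 3 each) in the isoform table, a log2 difference of 0.02 with a two-sided exact permutation p of 0.8. The heavy-strand precursor runs through the ND6 region in the antisense direction. The libraries are directional, and the sources used here do not say whether either table was made with strand in use. Without strand, reads of ND6 and of the RNA opposite to it cannot be told apart, so the level of ND6 depends on the table used and its part from antisense RNA was not tested.

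**Figure D5:**
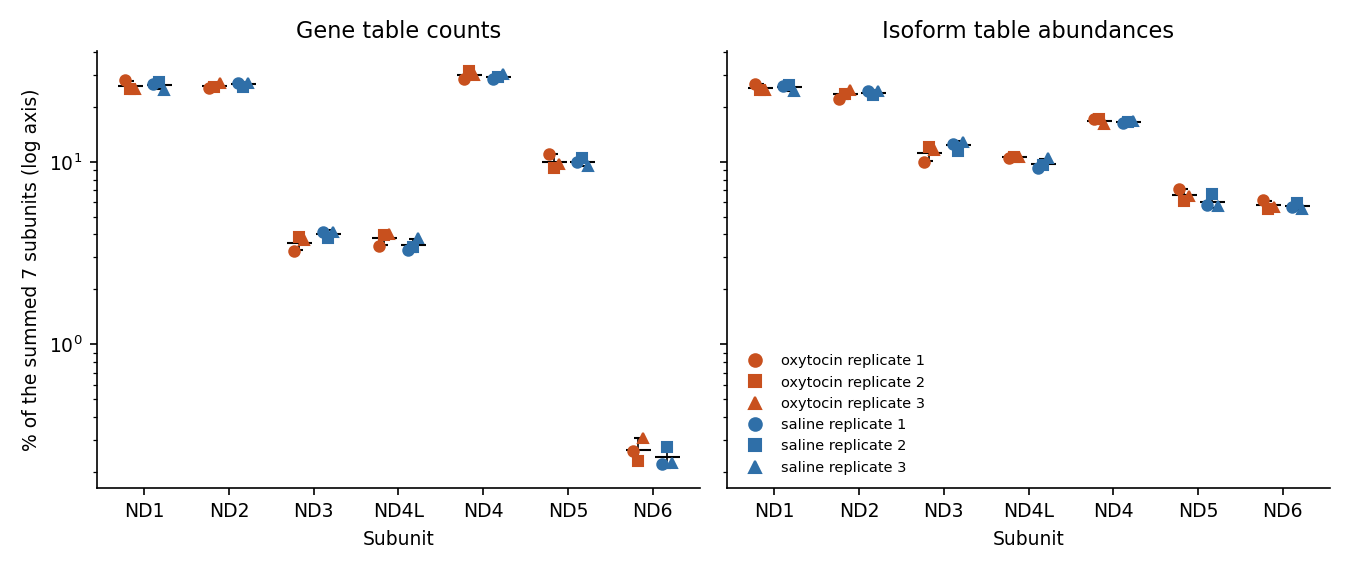
Share of each subunit in the summed 7 (percent, log axis) in the gene table's counts (left) and in the isoform table's abundances (right), 1 point per library, with group mean and SD (n = 3 each). ND6 moves from 0.221% to 0.308% of the sum on the left to 5.49% to 6.18% on the right. ND1 holds a similar share in both, at 24.8% to 28.1% and 24.4% to 26.8%. ND2 is lower on the right, at 22.1% to 24.7% against 25.3% to 27.2%.

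The other 6 messengers of the mitochondrial genome, for subunits of complexes III and IV and of ATP synthase, were read for comparison by the same identifier order. The 7 complex I messengers made up 38.4% ± 0.969 of the counts of all 13 with oxytocin and 39.2% ± 1.06 with saline (SD, n = 3 each), with overlapping groups. The other 6 deviated from their means like the members, with medians of -0.50 in saline replicate 2 and 0.37 in oxytocin replicate 1 on the log2 scale. Across the 6 libraries their log2 CPM had Pearson r between 0.932 (COX2) and 0.978 (ATP6) with the mean of the members, given as a description without a test. None of the 6 passed edgeR's test (adjusted p = 1 for each), and the median log2 difference was 0.09. Among 5898 further genes with at least 32 CPM, the 2 whose pattern was most like the members' mean were ENSMOCG00000021085 (r = 0.982, varying 1.56-fold between libraries) and ENSMOCG00000011370 (r = 0.979, varying 1.10-fold). With 6 libraries and so many genes, values of this size are reached by selection, and they carry no p.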

How the data were processed

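Directional libraries were made from poly(A) RNA of 6 nucleus accumbens samples, per the labels' protocols. The submitters' processing notes list DESeq2, kallisto, StringTie and Trim Galore, with no version or role. Genome build, annotation and use of strand are not given in the sources used here. Values in the gene table were deposited as whole-number counts for each gene identifier. The deposited isoform table holds a signal (scaled abundance) that is not a count. Columns were matched to libraries by the library names in the labels.

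Genes were kept by edgeR's filterByExpr (at least 10 counts per library in enough libraries, at least 15 in all), scaled with TMM factors and fitted with edgeR 4.0.16 in R 4.3.3 (robust quasi-likelihood, treatment as single factor, 4 residual degrees of freedom, threshold 0.05). Log2 CPM used a prior count of 2. Standard errors were derived from the log2 difference and its F statistic, and intervals use the moderated degrees of freedom. Ratios and correlations used exact permutation tests over libraries. The fit was also run on simulated counts with known differences. That run is not used here to judge how small a difference the test would find. Alternatives were other scalings, filters, DESeq2 1.42.0, limma 3.58.1 voom, a replicate block and leaving out each library.

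The members and lists were chosen with earlier results of these data known. Named were all 7 members, the other 6 mitochondrial messengers, and the 2 further genes most correlated with the members' mean. Lists of nuclear complex I genes, mitochondrial RNA handling genes and cell type markers gave no result, since 0 identifiers matched. No lengths or sequences of the members were in the reference used, so counts per length and sequences are not reported here.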

Additional observations from a re-analysis of the deposited data

How the results depend on the processing

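No member passed the test under any of the 15 alternatives of each (105 in all; edgeR, limma or DESeq2 adjusted p between 0.992 and 1), and 91 kept their direction. ND2 turned to 0.014 (log2) with the replicate block and to 0.14 with limma voom, and ND3 to 0.034 with limma voom; the cause was not tested. Leaving out 1 library in turn gave -0.22 to 0.15 for ND1, -0.26 to 0.14 for ND2, -0.42 to -0.01 for ND3, -0.13 to 0.34 for ND4L, -0.18 to 0.22 for ND4, -0.22 to 0.20 for ND5 and 0.03 to 0.37 for ND6, so ND3 and ND6 kept their direction without any 1 library, and ND6 alone kept it under all 15 alternatives. Over all genes, 0 passed edgeR's test and 5 DESeq2's, and 0 to 1 passed with 1 library left out, the 1 without saline replicate 1 or saline replicate 3. The 2 planned ratios kept their direction throughout, at 0.02 to 0.24 (ND6 to heavy strand) and 0.05 to 0.13 (ND4L to ND4) with 1 library left out. The deviations of same-numbered libraries correlated across genes at 0.065, 0.0019 and 0.4, and 3 of 6 correlated best with their own number. These values do not settle whether the libraries are paired. The labels name no pairs, and the main fit used none. With the replicate block, 0 genes passed, and the ratio differences were 0.14 (exact permutation p = 0.75) and 0.09 (exact permutation p = 0.25). A p of 0.25 is the smallest that 3 pairs can give in this two-sided test. The use of isoform values for both ratios was chosen after seeing the data. Counts per length were planned for ND4L to ND4 and not run, since no length was in the reference used. Counting error was largest for ND6, at 2.84% in its lowest library.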
